A study of Mus musculus with 9 samples.

Results

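Lesions treated with empty microneedles, a device that carried no drug, were compared with untreated lesions of mouse skin. The comparison takes the 3 libraries whose treatment label is the empty device and the 3 whose label is untreated, 6 of the 9 libraries of the series. All genes that passed a filter on raw counts were tested, 26081 of the 54456 in the count table. Polyadenylated RNA of whole skin was sequenced in bulk. The labels call the lesions AA-like, and the series title speaks of immune-mediated alopecia. Both groups carry such lesions, and the comparison therefore holds no healthy skin. The remaining 3 libraries, from lesions given a device loaded with IL-2 and CCL22, entered the fit to share the estimate of the spread and are not described. No source used here gives the strain, age or sex of the mice, how the lesions were induced, when or how often the device was applied, the time of sampling or the material of the needles. Nothing in the labels says that libraries of one group are from different animals, and p-values here therefore reflect the spread among these libraries alone, which can be technical. The labels also do not separate the device from the animal or from the patch of skin sampled.

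Microneedles are short projections that cross the outer layers of the skin, and an empty device delivers that piercing without a drug. Injured epidermis is known to switch on the stress keratins (Krt6a, Krt6b, Krt16), and injured dermis to draw in macrophages and matrix-forming fibroblasts. In alopecia areata, T cells gather around growing hair follicles, interferon-gamma raises the chemokines that attract more T cells, and the follicle loses the low antigen presentation that normally shields it. A growing follicle holds dividing matrix cells, keratinocytes that build the shaft and its sheath, pigment cells, and a dermal papilla that signals to them.

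The libraries held 88486833, 89498502 and 90334680 counts in untreated replicates 1 to 3 and 91167055, 96740589 and 94029075 with the empty device. Replicates were close to each other. Over pairs of libraries the median squared difference of counts was 2.11 to 5.05 times counting noise within the groups (6 pairs) and 24.9 to 44.0 times between them (9 pairs). Markers of skin were present in all 6 libraries, with Krt5 at 4891 to 5550 CPM (counts put on the scale of one library size, adjusted by TMM) and Col3a1 at 488 to 585 CPM. Several measures of sample quality and tissue makeup moved with the groups. Mitochondrially encoded transcripts made up 4.72%, 4.58% and 4.56% of counts in untreated replicates 1 to 3 and 3.31%, 3.36% and 3.42% with the empty device. Skeletal muscle genes made up 1.18%, 1.23% and 1.21% against 1.62%, 1.67% and 1.93%. Neither pair of groups overlapped, and the exact two-sided permutation p was 0.1 for each, the smallest that 3 against 3 libraries can give.

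Fold changes also followed the composition of the transcripts. Over the 16394 genes of at least 1 CPM with a matched reference transcript, the median log2 fold change was higher at higher GC content, from -0.28 at 30 to 40% GC (925 genes) to 0.15 at 60 to 75% (636 genes). With length it went from -0.53 under 500 bases (684 genes) to 0.047 at 4000 bases and over (5449 genes). Beside many of the lists, counts are also given from a fit with this trend removed, an alternative added after seeing the data.

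**Figure D1:**
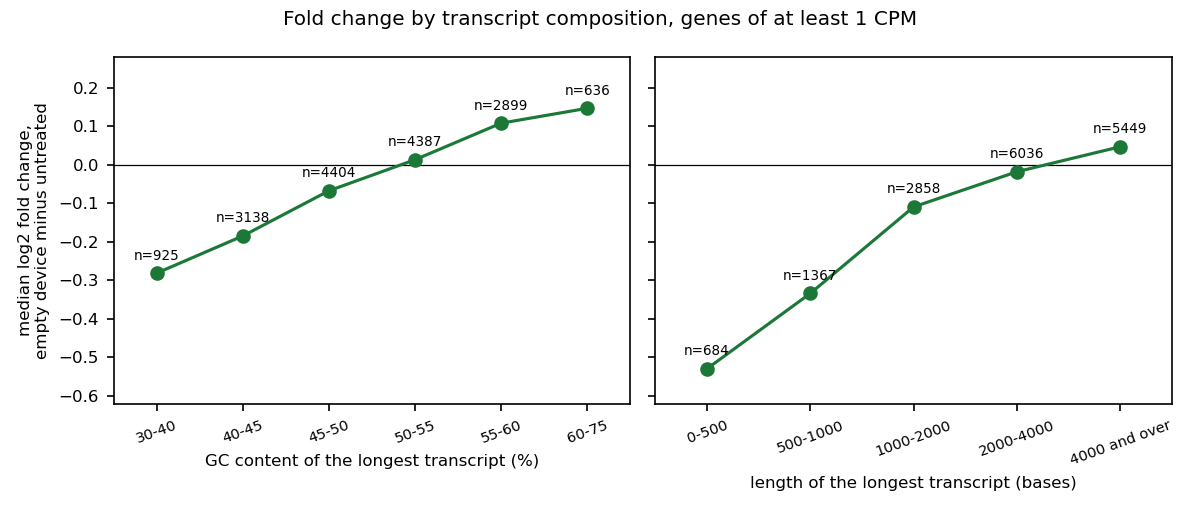
Median log2 fold change, empty device minus untreated, of genes grouped by GC content (left, %) or length in bases (right) of their longest reference transcript. Each point is 1 bin with its number of genes, and the medians run from -0.28 to 0.15 with GC and from -0.53 to 0.047 with length.

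Many genes differed between the groups, most of them by little. By edgeR's quasi-likelihood test 12597 of the 26081 genes, 48.3%, had a Benjamini-Hochberg adjusted p under 0.05, a change referred to here as called. Of all tested genes 20.2% were called higher (5258 genes) and 28.1% were called lower (7339 genes), and the median log2 fold change was -0.016. At 2-fold or more 607 genes, 2.33%, were called, with 171 higher (0.656%) and 436 lower (1.67%). The groups did not overlap for 54.6% of genes. Higher calls made up 41.7% of the calls, but 53.0% with upper-quartile scaling, 57.9% with library-size scaling, which moved the median of all genes by 0.104, and 29.2% with the GC and length trend removed. Of the main calls, 71.4% (8998 genes) were also called with the same sign after that trend was removed. In the main fit a count of list members is therefore read against 28.1% lower and 20.2% higher. The same 26081 genes gave 8785 lower and 3619 higher with the GC and length trend removed. They gave 5577 lower and 7677 higher with library-size scaling, and 6109 lower and 6902 higher with upper-quartile scaling. List counts from those fits are read against these numbers. List medians are read against the median of all genes in the same fit. That median was 0.0546 with upper-quartile scaling, 0.0877 with library-size scaling and -0.0711 with the trend removed. Lists are described by counts and medians, with no test of the list. In bulk RNA, fewer cells of a type and less RNA per cell cannot be told apart, and this holds for every result that follows.

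**Figure D2:**
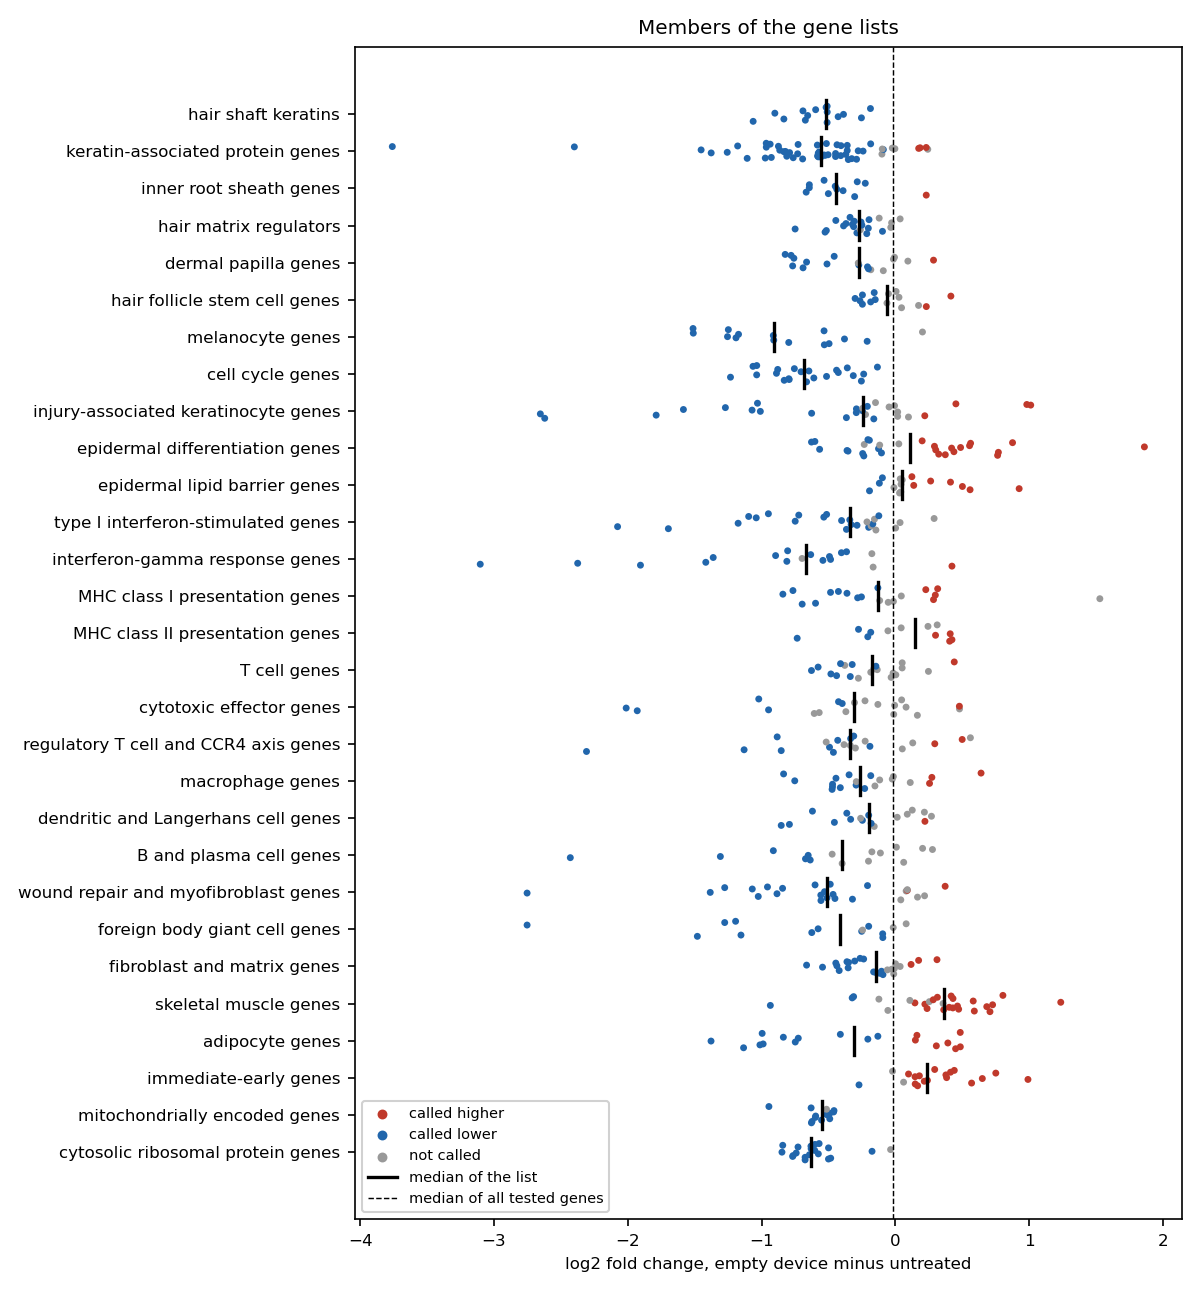
Log2 fold changes, empty device minus untreated, of the tested members of 29 gene lists. Each point is 1 gene (red called higher, blue called lower, grey not called), the short black bar is the median of the list, and the dashed line is the median of all 26081 tested genes at -0.016. The melanocyte median lies at -0.91 and the skeletal muscle median at 0.36.

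Genes that answer to interferon were lower with the empty device. Of 18 tested interferon-gamma response genes, 14 fell and 1 rose, while 3 did not pass (median log2 fold change -0.66). Of 25 type I interferon-stimulated genes, 18 fell and 7 did not pass, with a median of -0.34. The counts of members that fell were again 14 and 18 with the GC and length trend removed (medians -0.68 and -0.42).

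Cxcl9, a chemokine gene induced by interferon-gamma whose product attracts T cells through the receptor CXCR3, lies on chromosome 5 from 92469206 to 92475938 in mm39. It stood at 24.6, 20.6 and 21.2 CPM in untreated replicates 1 to 3 and at 4.105, 4.07 and 4.61 CPM with the empty device. All untreated libraries lay far above all empty-device libraries, a 5.18-fold difference (log2 fold change -2.37 with SE 0.090, adjusted p = 7.65e-13 by edgeR). Cxcl10 and Cxcl11, its neighbours with the same receptor, changed by -1.90 and -3.10 on the log2 scale. Cxcl10 went from 4.08, 4.56 and 4.34 CPM to 1.29, 1.03 and 1.15 CPM. Cxcl11 went from 3.89, 3.57 and 3.36 CPM to 0.421, 0.276 and 0.5599 CPM, and the groups did not overlap for either gene. Both lie within Art3 on the other strand, and no source used here gives the strand setting of the counting. Of genes whose whole span is shared with the other strand alone 14.1% were at 0 in all libraries, close to the 15.1% of genes that share none, whereas 99.8% of those wholly shared on their own strand were at 0. Ifng itself, which encodes interferon-gamma, was near the detection limit, at 21, 23 and 14 counts in untreated lesions against 1, 9 and 6 under the empty device (log2 fold change -2.01 with SE 0.49, adjusted p = 0.000955 by edgeR). Of the span of Ifng 43.8% is free of other genes on its strand, so its count may be incomplete.

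Guanylate-binding proteins and immunity-related GTPases, which attack the vacuoles of intracellular pathogens, were among the interferon-gamma genes that fell. Gbp2 stood at 35.3, 29.4 and 29.8 CPM without treatment against 11.6, 11.7 and 12.1 CPM with the empty device (log2 fold change -1.42 with SE 0.065, adjusted p = 9.3e-13 by edgeR). Gbp2b, a close relative of Gbp2, changed by -1.65 and Irgm1 by -0.89. Sequence shared within this family makes the split of reads between copies uncertain. Ciita, the switch for MHC class II genes, went the other way at 0.42, a call that was lost with the GC and length trend removed (0.11).

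Among the type I genes, Ifit1, whose product binds foreign RNA, had 16.1, 14.5 and 13.4 CPM in untreated lesions and 3.35, 3.66 and 3.401 CPM under the empty device, 4.22-fold lower (log2 fold change -2.08 with SE 0.074, adjusted p = 3.42e-18 by edgeR). Isg15, a ubiquitin-like modifier, had 20.6, 19.7 and 18.5 against 8.004, 9.04 and 9 CPM. Neither pair of groups overlapped. Ifi44 and Oasl2, both induced by interferon, changed by -1.70 and -1.04. Not all members moved: Mx1 and Ifi44l, also classical interferon targets, had log2 fold changes of 0.035 and 0.0022 and did not pass.

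Promoters of these genes are shown because many of the members hold the same motif in them. The interferon-stimulated response element was searched as TTTC, any 2 bases and TTTC, on both strands, in the 250 bases before the transcription start of each gene in RefSeq promoters (GRCm38.p6, a different build from the counts). It occurred in 978 of 32851 promoters (2.98%), in 9 of the 12 interferon-gamma response genes with a promoter (75%) and in 9 of the 19 type I genes with one (47.4%). These shares differ in unit: the first counts promoters, whereas a listed gene counts once if any of its promoters holds a match. The motif was chosen after the promoters were seen, and a match describes the letters and not a bound site. Windows of 100 bases are given 5′ to 3′ on the strand of the gene, with the match, on either strand, in capitals.
Ifit1 (chr19:34640759-34640858, plus strand): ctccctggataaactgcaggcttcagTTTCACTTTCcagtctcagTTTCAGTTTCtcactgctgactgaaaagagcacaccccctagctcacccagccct
Isg15 (chr4:156200830-156200929, minus strand): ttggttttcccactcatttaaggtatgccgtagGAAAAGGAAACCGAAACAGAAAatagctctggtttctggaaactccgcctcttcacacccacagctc
Cxcl10 (chr5:92349040-92349139, minus strand): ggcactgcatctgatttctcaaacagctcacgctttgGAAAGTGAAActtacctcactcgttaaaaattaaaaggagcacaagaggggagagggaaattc
Gbp2 (chr3:142620559-142620658, plus strand): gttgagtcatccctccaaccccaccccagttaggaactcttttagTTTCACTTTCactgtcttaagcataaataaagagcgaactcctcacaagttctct
Ifit1 and Isg15 hold 2 and 3 matches in their 250 bases, and Cxcl10 and Gbp2 hold 1 each. Cxcl9, which fell as well, has no match in its window, and neither has Ifi44. Oas3 and Stat2 hold a match with log2 fold changes of -0.16 (not called, but called lower at -0.42 with the trend removed) and -0.12.

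Antigen presentation was split. Of 19 MHC class I presentation genes, 10 fell and 4 rose (median -0.13). B2m, the light chain of class I molecules, went from 1288, 1119.8 and 1114 CPM to 718, 727 and 728 CPM without overlap (log2 fold change -0.70 with SE 0.053, adjusted p = 1.14e-08 by edgeR). The immunoproteasome gene Psmb10 changed by -0.84 and the peptidase gene Erap1 by -0.60, whereas the transporter gene Tap2 rose by 0.32. With the GC and length trend removed 13 fell and 1 rose, and Tap2 was no longer called (0.054). Of 12 class II genes, 4 rose and 4 fell (median 0.14). Cd74, the invariant chain, rose from 294, 293 and 286 CPM to 387, 397 and 372 CPM, while Ctss, the protease that cleaves it, fell (-0.73).

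Genes of T cells were lower in part. Of 20 T cell genes, 8 fell and 1 rose (40% lower, beside 28.1% of all genes), with a median of -0.17. Cd3g, a chain of the T cell receptor complex, had 10.2, 10 and 10.4 CPM without treatment against 6.76, 7.61 and 7.55 CPM with the empty device (log2 fold change -0.48 with SE 0.064, adjusted p = 2.93e-07 by edgeR). Trbc2 and Lck changed by -0.41 and -0.58. The count of 8 depended on single libraries, since it was 4 without untreated replicate 1 or empty-device replicate 1 and 5 without untreated replicate 3, empty-device replicate 2 or loaded-device replicate 1. It was 3 to 5 with upper-quartile, library-size or DESeq2 scaling, and 5 with the GC and length trend removed. Cd8a, the co-receptor of cytotoxic T cells, had 0.425, 0.341 and 0.416 CPM against 0.248, 0.235 and 0.2799 CPM (log2 fold change -0.63 with SE 0.26, adjusted p = 0.0461 by edgeR), a call lost on leaving out any of 8 libraries in turn.

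Of 19 cytotoxic effector genes, 6 fell, 1 rose and 12 did not pass (median -0.31). The share that fell, 31.6%, was close to the 28.1% of all genes. A stricter filter left 9 of the list, with 3 lower and 2 higher (median -0.0825). Single members fell further than the list. Gzmb, the gene of granzyme B, went from 0.547, 0.494 and 0.566 CPM to 0.151, 0.0921 and 0.176 CPM without overlap (log2 fold change -1.93 with SE 0.29, adjusted p = 1.94e-06 by edgeR). Xcl1, a lymphocyte chemokine, changed by -1.02 and Gzmc by -0.95, while Prf1, which encodes perforin, did not pass (log2 fold change -0.23 with SE 0.12, adjusted p = 0.117 by edgeR) and was called lower with the trend removed (-0.37). Il15ra, which presents IL-15 to T and NK cells, rose from 32.01, 32.8 and 32.5 CPM to 46.7, 41.5 and 47.5 CPM.

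Chemokines of the CCR4 axis, which draws regulatory and skin-homing T cells, were lower. Ccl17 had 1.082, 0.811 and 0.8199 CPM in untreated lesions and 0.151, 0.184 and 0.207 CPM under the empty device (log2 fold change -2.31 with SE 0.25, adjusted p = 5.23e-09 by edgeR), and Ccl22 changed by -0.85. Ccr4, their receptor, did not pass, with 4.62, 4.51 and 4.68 CPM against 4.09, 4.97 and 5.24 CPM. Foxp3, the regulator of regulatory T cells, had 20, 31 and 33 counts against 20, 29 and 26, a difference not detectable at this depth (log2 fold change -0.34 with SE 0.29, adjusted p = 0.368 by edgeR). Il2 had 24, 11 and 22 counts against 18, 12 and 25. Tnfrsf18 (GITR), carried by regulatory and activated T cells, changed by -0.88. In all 10 of 20 genes of this list fell and 2 rose, with Lrrc32, which anchors latent TGF-beta, at 0.50.

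Genes that shield the follicle from immune attack were, as fitted, not called more often than all genes. Of 15 such immune privilege genes 3 fell, 2 rose and 10 did not pass (median -0.15). The shares were 20% lower and 13.3% higher, beside 28.1% and 20.2% of all genes. Without untreated replicate 1, or with the trend removed, 5 fell. Igf1, a growth factor with such a role, had 22.97, 21.8 and 21.8 CPM without treatment against 13.5, 13.8 and 14.7 CPM with the empty device (log2 fold change -0.66 with SE 0.048, adjusted p = 2.26e-12 by edgeR). Cd200, a surface signal that calms macrophages, changed by -0.19, and Tgfb2, a suppressive growth factor, rose by 0.23, a call lost with the trend removed (0.12). Cd274, which encodes PD-L1, did not pass (log2 fold change -0.17 with SE 0.072, adjusted p = 0.0575 by edgeR), nor did Ido1 (-0.70), Il10 (-0.52) or Pomc (-0.52).

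Myeloid genes were lower in part. Of 20 macrophage genes, 11 fell and 3 rose (median -0.26), and 13 fell with the GC and length trend removed. C1qc, a complement chain made by tissue macrophages, had 39.2, 40.8 and 38.4 CPM against 27.5, 30.4 and 27.5 CPM with no overlap (log2 fold change -0.47 with SE 0.044, adjusted p = 5.92e-10 by edgeR). Fcgr3 and Lyz2 changed by -0.75 and -0.44, and Adgre1, which encodes F4/80, by -0.47. Csf1r, the receptor for macrophage growth factor, rose by 0.26, a call that was lost with the trend removed. Of 17 dendritic and Langerhans cell genes 9 fell and 1 rose, but 6 fell and 1 rose with the trend removed. Ccr7 changed by -0.79 and the Langerhans marker Cd207 by -0.18 (not called with the trend removed, -0.091). The count of higher members of this list was 5 with upper-quartile or library-size scaling. Neutrophil genes were not lower more often than all genes. Of 14, 3 fell and 11 did not pass (median -0.27), a share of 21.4% beside 28.1% of all genes. With upper-quartile scaling 2 fell, and with the trend removed 2 fell and 1 rose. Of 13 mast cell genes 6 fell and 7 did not pass (median -0.21), with Hdc, which makes histamine, at -1.06.

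Antibody transcripts fell unevenly. Ighg1, an antibody heavy chain constant region on chromosome 12 from 113288860 to 113294143, had 16.98, 18.1 and 17.4 CPM in untreated lesions and 2.895, 3.33 and 3.52 CPM under the empty device, 5.39-fold lower (log2 fold change -2.43 with SE 0.076, adjusted p = 1.04e-18 by edgeR). Ighg2b changed by -1.31 and Jchain, which joins secreted IgA and IgM, by -0.91. Ighm did not pass (log2 fold change -0.11 with SE 0.068, adjusted p = 0.185 by edgeR), nor did the B cell gene Ms4a1 (0.28), which was called higher with the trend removed (0.41). In all 6 of 15 B and plasma cell genes fell, and 9 fell with the trend removed. Of 43 antibody V segments, which differ between B cell clones, 20 were called lower and 8 higher, each by 2-fold or more. Of all genes 1.67% were called lower and 0.656% higher by that much. The filter also keeps a segment counted in a single group, which favours large differences, so no conclusion is drawn from these counts.

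Cytokines of inflammation were lower in 14 of 28 cases and higher in 3 (median -0.20). The monocyte chemokine genes Ccl2 and Ccl7 changed by -1.15 and -1.43, and Ptgs2, the inducible cyclooxygenase, by -1.26. Il1b had 3.66, 3.06 and 3.66 CPM against 2.08, 2.31 and 1.92 CPM without overlap (log2 fold change -0.71 with SE 0.11, adjusted p = 2.15e-06 by edgeR). Il6 and Tnf did not pass (0.18 and 0.26), while Csf1, the macrophage growth factor, rose by 0.42. Hp, the acute-phase gene haptoglobin, went from 74.2, 70.2 and 68.8 CPM to 18.6, 22.1 and 18.2 CPM (log2 fold change -1.85 with SE 0.077, adjusted p = 1.26e-08 by edgeR). Among genes of alternative activation Retnla rose from 14.6, 11.9 and 12.5 CPM to 31.5, 30.7 and 32.03 CPM (log2 fold change 1.28 with SE 0.070, adjusted p = 9.61e-11 by edgeR), whereas Arg1 and Alox15 changed by -0.58 and -1.06. Of that list of 13, 7 fell and 1 rose.

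**Figure D3:**
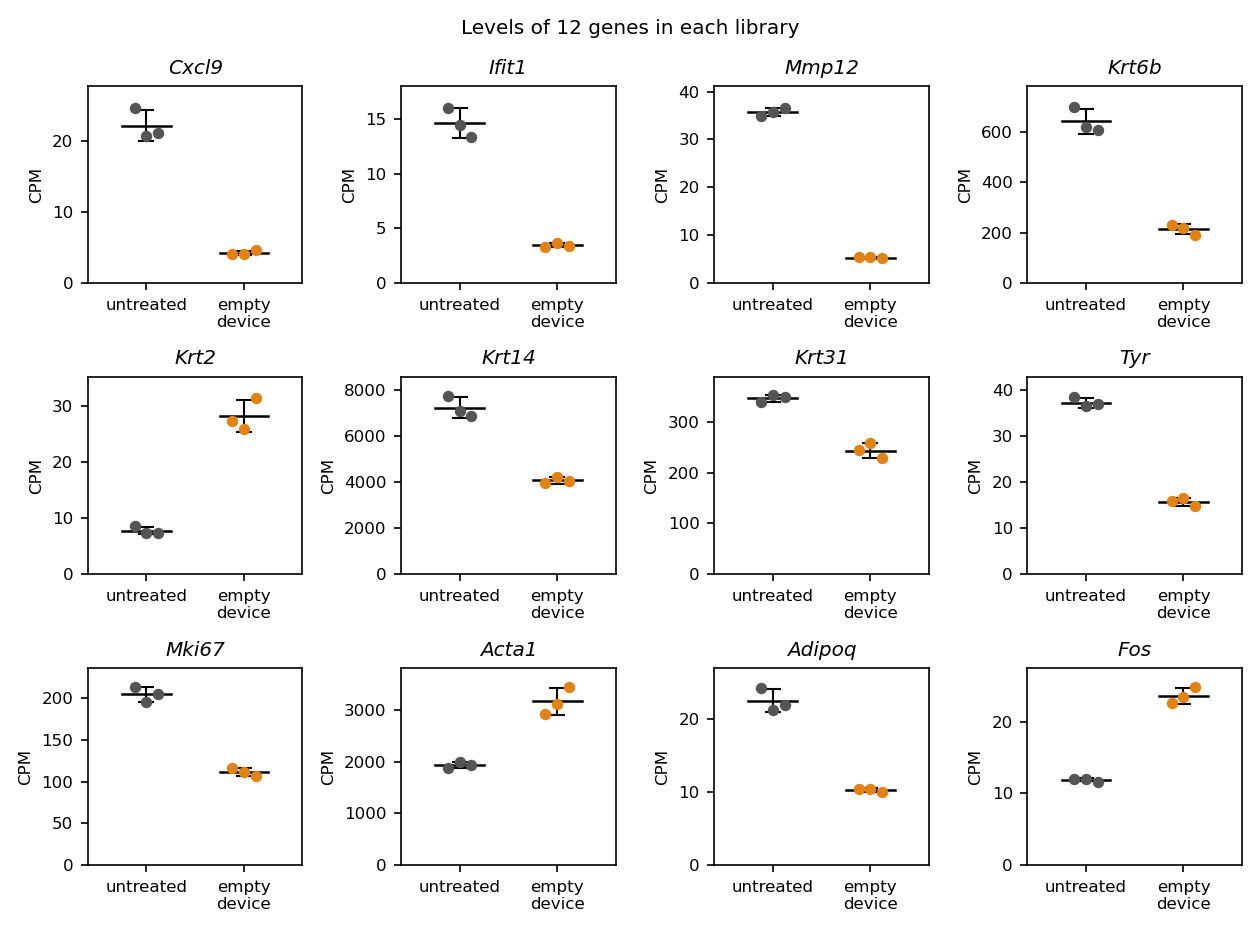
Levels in CPM of 12 genes in each of the 6 libraries. Points are libraries, horizontal lines means and bars SD (n = 3 libraries per group), and each axis starts at 0. The groups do not overlap for any of the 12 genes, with Mmp12 near 36 CPM untreated and near 5 CPM with the empty device.

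Genes that mark wound repair and the reaction to an implanted body were lower with the empty device. Of 25 wound repair and myofibroblast genes, 18 fell, 2 rose and 5 did not pass (median -0.51), and of 14 foreign body giant cell genes 11 fell and 3 did not pass (median -0.41). Mmp12, the elastase of macrophages, lies on chromosome 9 from 7344381 to 7369499 and belongs to both lists. It stood at 34.9, 35.7 and 36.6 CPM without treatment against 5.36, 5.35 and 5.21 CPM with the empty device, 6.74-fold lower and without overlap (log2 fold change -2.75 with SE 0.060, adjusted p = 2.97e-22 by edgeR). Postn, a matrix protein laid down by activated fibroblasts, had 817, 740.3 and 729 CPM against 361, 358 and 371 CPM (log2 fold change -1.07 with SE 0.039, adjusted p = 9.92e-18 by edgeR). Tagln and Acta2, which mark contractile myofibroblasts, changed by -0.96 and -0.56, and the collagenase gene Mmp13 by -1.38. Spp1 (osteopontin), Trem2 and Atp6v0d2, a proton pump subunit of fusing macrophages, changed by -1.28, -1.19 and -1.48. Dcstamp, which macrophages need to fuse, did not pass (log2 fold change -0.24 with SE 0.18, adjusted p = 0.293 by edgeR). Tgfbi rose by 0.37. With the GC and length trend removed 18 and 12 members fell.

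Structural genes of fibroblasts were lower as well. Of 25 fibroblast and matrix genes 16 fell and 3 rose (median -0.14). Fap, a protease of activated fibroblasts, changed by -0.66, Dpp4 by -0.54 and Col5a2 by -0.42. Col1a1, the main fibrillar collagen chain, had 229.8, 229 and 221 CPM against 204, 211 and 212 CPM (log2 fold change -0.12 with SE 0.032, adjusted p = 0.00272 by edgeR), a call that was lost with upper-quartile or library-size scaling and with only these groups in the fit. The trend-removed fit placed 22 of the 25 lower, with Col1a1 at -0.51.

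In the epidermis the stress keratins were lower and several late differentiation genes higher. Krt6b, a keratin of injured and thickened epidermis, had 699, 618 and 607 CPM in untreated lesions and 232, 218 and 192 CPM under the empty device, 2.998-fold lower (log2 fold change -1.58 with SE 0.080, adjusted p = 3.11e-07 by edgeR). Krt6a went from 848, 773 and 761 CPM to 392.1, 387 and 354 CPM, and Krt16, their partner keratin, changed by -1.01. None of these groups overlapped. Krt6a and Krt6b are close copies on chromosome 15, so the split of reads between them is uncertain.

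Of the 27 genes associated with injured keratinocytes, 15 fell, 4 rose and 8 did not pass (median -0.24). Il24, a keratinocyte cytokine of wounds, changed by -2.65, Serpinb3a by -1.27 and the alarmin gene Il33 by -0.63. The 4 members that rose were Hbegf, a growth factor gene, and the cornified envelope genes Sprr2d, Sprr2e and Sprr2h. Sprr2d rose from 10.8, 10.7 and 10.4 CPM to 22.1, 22.03 and 20.3 CPM (log2 fold change 1.01 with SE 0.060, adjusted p = 6.28e-14 by edgeR). Sprr2e, Sprr2h and Hbegf rose by 0.98, 0.45 and 0.22, and Sprr2i, a relative outside the list, by 1.43. With the GC and length trend removed the list median was 0.018, beside -0.0711 for all genes, with 12 lower and 7 higher. Krt6b, Krt6a and Krt16 then stood at -1.72, -1.23 and -1.1. Tmprss11d, an airway-type serine protease, changed by -1.64.

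Krt2, a keratin of the upper spinous layer, had 8.48, 7.37 and 7.402 CPM without treatment against 27.4, 25.8 and 31.3 CPM with the empty device, 3.63-fold higher (log2 fold change 1.86 with SE 0.070, adjusted p = 2.42e-14 by edgeR). Lor (loricrin), the bulk protein of the cornified envelope, rose from 1537, 1699 and 1597 CPM to 2931, 3130.4 and 2810.1 CPM, and Casp14, a protease of cornification, rose by 0.76. Flg, filaggrin, rose by 0.77, a call lost with the GC and length trend removed (0.16), and Krt1 and Krt10, the suprabasal keratin pair, by 0.42 and 0.49. Other members fell, such as the protease gene Klk7 (-0.57), its inhibitor gene Spink5 (-0.60) and Ivl, involucrin (-0.36). Altogether 14 of 28 differentiation genes rose and 11 fell (median 0.11). With the trend removed 11 rose and 11 fell (median -0.018, beside -0.0711 for all genes), and Krt2 and Lor stood at 1.70 and 0.59.

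Lipoxygenases of the skin barrier were higher. Aloxe3 had 124, 132 and 127 CPM against 254, 232 and 241 CPM without overlap (log2 fold change 0.93 with SE 0.035, adjusted p = 1.3e-17 by edgeR), and Alox12b rose by 0.56. Of 16 epidermal lipid barrier genes 7 rose and 3 fell (median 0.047). The count of higher members was 11 without empty-device replicate 3 and 11 to 13 with a stricter filter or with upper-quartile or library-size scaling.

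In the basal layer Krt14 fell from 7726, 7094 and 6849 CPM to 3945, 4224 and 4022 CPM (log2 fold change -0.83 with SE 0.043, adjusted p = 4.39e-15 by edgeR), while its partner Krt5 changed by -0.12 (-0.31 with the GC and length trend removed). Col7a1, the anchoring fibril collagen, rose by 0.74 (0.23 with the trend removed). Of the 13 basal epidermal genes 4 fell and 3 rose (median -0.047). The list median was above 0, but below that of all genes, with a stricter filter and with upper-quartile or library-size scaling. With the trend removed 12 fell and 1 rose (median -0.27). Itgb4, an integrin of the basement membrane, rose by 0.21, but with that trend removed it fell (-0.21).

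Genes of the growing hair follicle were lower, with the stem cell list the most mixed of the compartments as fitted. All 15 hair shaft keratins fell (median -0.52), between -1.06 for Krt32 and -0.19 for Krt84. Krt31 had 340.4, 353 and 350.3 CPM in untreated lesions and 245, 259 and 229 CPM under the empty device, without overlap (log2 fold change -0.51 with SE 0.039, adjusted p = 1.07e-11 by edgeR). Krt40 and Krt33b changed by -0.90 and -0.83. With the trend removed all 15 fell as well (median -0.73).

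Keratin-associated proteins, the matrix between the keratin filaments of the shaft, fell in 47 of 55 cases and rose in 3 (median -0.56). Krtap11-1 had 826, 763 and 772 CPM against 360.5, 391.6 and 344 CPM (log2 fold change -1.11 with SE 0.042, adjusted p = 1.14e-16 by edgeR). Krtap5-3 had the lowest fold change of the named genes, from 355, 350 and 305 counts to 16, 39 and 29 (log2 fold change -3.76 with SE 0.17, adjusted p = 2.24e-16 by edgeR), and Krtap5-2 changed by -2.40. The 3 that rose, Krtap4-6, Krtap4-8 and Krtap4-9, are neighbours in name, at 0.17, 0.19 and 0.23. Genes of this family share sequence, so single counts are uncertain. With the trend removed 43 were lower and 3 higher (median -0.37).

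The inner root sheath, which moulds the shaft, was lower in 11 of 12 genes, with Gata3 higher (0.23). Krt71 stood at 8099, 8184 and 8066 CPM without treatment against 5208, 5518 and 4868 CPM with the empty device (log2 fold change -0.64 with SE 0.042, adjusted p = 3.76e-13 by edgeR). Krt25 changed by -0.50 and Tchh (trichohyalin) by -0.53. Of 22 regulators of the hair matrix 17 fell and 5 did not pass (median -0.27), and all 22 fell with the trend removed. They include the Wnt effector gene Lef1, with 41.6, 42.5 and 44.6 CPM against 35.9, 37.6 and 34.8 CPM (log2 fold change -0.25 with SE 0.039, adjusted p = 3.69e-06 by edgeR), and Msx2 and Hoxc13, at -0.37 and -0.39. Fgf5, the signal that ends the growth phase of the follicle, fell too, from 23.4, 23.6 and 24.3 CPM to 14.9, 14.4 and 13.2 CPM.

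Dermal papilla genes fell in 11 of 18 cases and rose in 1 (median -0.28). Enpp2, Vcan and Corin, markers of that cell cluster, changed by -0.77, -0.78 and -0.69. Rspo3, a Wnt enhancer, changed by -0.76. Among 15 hair follicle stem cell genes 7 fell and 2 rose. Sox9 and Lgr5 changed by -0.25 and -0.26, Nfatc1 rose by 0.42, and Cd34, the bulge marker, did not pass (log2 fold change 0.047 with SE 0.039, adjusted p = 0.349 by edgeR) but was called higher with the trend removed (0.13). The stem cell median of -0.062 was above 0 with upper-quartile and library-size scaling (0.00795 and 0.0413). It stayed below the medians of all genes in those fits (0.0546 and 0.0877). With the trend removed 11 of 15 fell (median -0.30, beside -0.0711 for all genes). Col17a1, which anchors stem cells, rose by 0.23 but fell with the trend removed (-0.11).

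Among the follicle lists the median was lowest for pigment cells. Of 15 melanocyte genes 14 fell, and Sox10 did not pass (log2 fold change 0.20 with SE 0.086, adjusted p = 0.0536 by edgeR). With DESeq2 size factors and with upper-quartile or library-size scaling 1 member of the list was called higher. Sox10 stood at -0.13 with the GC and length trend removed, again not called. The list median was -0.91, and -0.96 with that trend removed. Tyr, tyrosinase, the first enzyme of melanin synthesis, lies on chromosome 7 from 87073979 to 87142720. It had 38.5, 36.5 and 36.9 CPM in untreated lesions and 15.8, 16.4 and 14.9 CPM under the empty device, 2.38-fold lower (log2 fold change -1.25 with SE 0.045, adjusted p = 4.59e-18 by edgeR). Tyrp1, a later enzyme, went from 159, 147 and 146 CPM to 54.7, 56.6 and 47.1 CPM (log2 fold change -1.51 with SE 0.073, adjusted p = 9.56e-08 by edgeR). The groups lay apart for both genes. The transporter genes Slc45a2, Slc24a5 and Oca2 changed by -1.51, -1.17 and -1.25. Mitf, the master regulator of the lineage, changed by -0.38 and Kit by -0.21. Edn3, the endothelin that melanocytes need, had 4.38, 3.76 and 3.65 CPM against 1.296, 1.66 and 1.26 CPM (log2 fold change -1.48 with SE 0.11, adjusted p = 2.92e-12 by edgeR).

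The motif TCATGTG, a form of the element to which MITF is known to bind, was searched and counted in the same way. It occurred in 1068 of 32851 promoters (3.25%) and in 6 of the 10 melanocyte genes with a promoter in RefSeq (60%). Windows of the genes of both enzymes are shown, with the match in capitals, because they hold it close to the start.
Tyr (chr7:87493513-87493612, minus strand): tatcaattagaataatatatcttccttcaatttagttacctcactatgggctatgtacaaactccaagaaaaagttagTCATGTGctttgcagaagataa
Tyrp1 (chr4:80834113-80834212, plus strand): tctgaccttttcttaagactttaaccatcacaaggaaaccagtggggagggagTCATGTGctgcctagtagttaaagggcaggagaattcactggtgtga
The last base of the match lies 16 bases before the start of Tyr and 41 bases before that of Tyrp1. Oca2, which also fell, has no match in its 250 bases, and neither have Mitf and Kit. The choice of this motif was also made after the promoters were seen.

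Genes of dividing cells fell together. All 22 cell cycle genes were called lower, between -1.23 for the mitotic cyclin gene Ccnb1 and -0.13, with a median of -0.68 (-0.69 and again 22 lower with the trend removed). Mki67, a marker of cycling cells, had 213, 195 and 205 CPM without treatment against 116, 111 and 107 CPM with the empty device (log2 fold change -0.88 with SE 0.037, adjusted p = 8.99e-17 by edgeR). Top2a, the mitotic topoisomerase, went from 244, 222 and 225 CPM to 109, 111 and 109.9 CPM. The groups were apart for both. The list cannot assign the change to follicle or epidermis, since both hold dividing cells. Mdm2, which restrains p53, rose from 64.5, 62.6 and 65.9 CPM to 134, 139 and 156 CPM (log2 fold change 1.15 with SE 0.046, adjusted p = 1.73e-13 by edgeR), whereas Trp53 did not pass (0.051, called lower at -0.13 with the trend removed) and Cdkn1a, a p53 target that halts the cycle, rose by 0.10, a call lost with the trend removed.

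Skeletal muscle genes were higher, and no source used here says which muscle their RNA came from. Of 27, 19 rose, 3 fell and 5 did not pass (median 0.36). With the trend removed 19 rose and 5 fell (median 0.33). Acta1, skeletal actin, stood at 1885, 1998 and 1943 CPM in untreated lesions and 2930.2, 3126 and 3458 CPM under the empty device, highest in replicate 3 (log2 fold change 0.71 with SE 0.046, adjusted p = 8.62e-12 by edgeR). Myh1 rose by 0.68, Ttn by 0.80 and Myod1, the muscle determination factor, by 1.24. Myh4, the fastest myosin heavy chain, went the other way, from 986, 1026 and 959.6 CPM to 494, 496 and 566 CPM (log2 fold change -0.93 with SE 0.062, adjusted p = 5.52e-08 by edgeR). The slow troponin genes Tnni1 and Tnnt1 changed by -0.32 and -0.31. The share of muscle RNA thus moved with the groups, and its part in the other results was not tested.

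**Figure D4:**
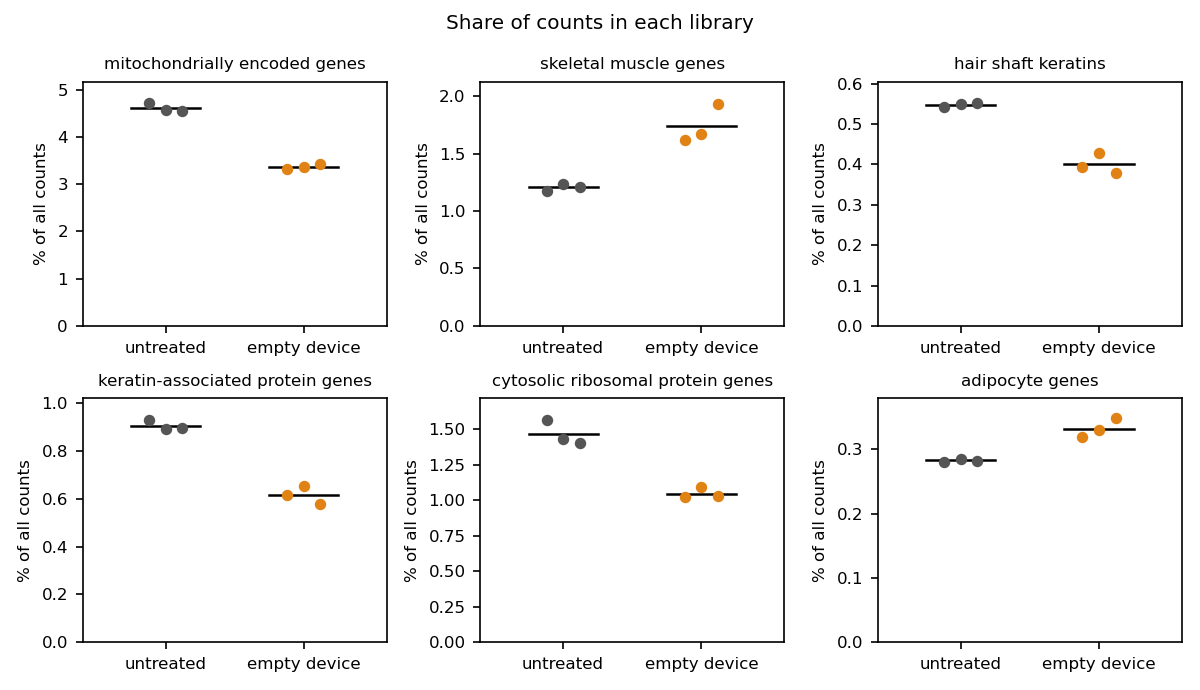
Share of all counts, in %, taken by 6 sets of genes in each library (points) with the group mean (line), n = 3 libraries per group. Each axis starts at 0. Muscle genes have means of 1.21% untreated and 1.74% with the empty device, hair shaft keratins 0.548% and 0.400%, and no set overlaps between the groups.

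Fat genes were split. Of 18 adipocyte genes, 11 fell and 7 rose (median -0.31), and 12 fell and 4 rose with the trend removed. Adipoq, adiponectin, a defining product of fat cells, had 24.3, 21.3 and 22.02 CPM against 10.4, 10.5 and 9.95 CPM (log2 fold change -1.13 with SE 0.055, adjusted p = 3.36e-15 by edgeR), and Lep, Cfd and Cidec changed by -1.38, -1.01 and -0.99. Car3, Slc2a4 and Acsl1, which muscle or other tissues also express, rose by 0.49, 0.49 and 0.45. The summed share of the list was 0.283% ± 0.00255 of counts untreated and 0.332% ± 0.0149 with the empty device (SD, n = 3), although Adipoq, Lep and Cfd fell. In sebaceous glands 10 of 19 genes fell and 5 rose (median -0.19), or 3 rose without untreated replicate 2 or with the trend removed. Mgst1 stood at -0.91 as fitted, and with the trend removed Mgst1 and Elovl3 stood at -0.69 and -0.73. Of 23 cholesterol synthesis genes 11 fell and 5 rose (median -0.10), with Msmo1 at -0.68 and Dhcr7, the last enzyme of the path, at 0.45. Without empty-device replicate 3, 10 fell and 8 rose (median -0.0041), and with the trend removed 17 fell and 2 rose. Of 20 endothelial genes 8 rose and 4 fell, with Flt1 at 0.43 and the adhesion gene Vcam1 at -0.65. The trend-removed fit had 2 higher and 7 lower there. Of 14 Schwann cell genes 5 rose and 3 fell, but 3 rose without untreated replicate 2, without empty-device replicate 2 or 3 or without any 1 loaded-device replicate, and 5 rose and 5 fell with the trend removed. Markers of blood and of glands that dissection can bring in were mixed, with 3 of 7 erythrocyte genes lower and, of 8 sweat, mammary and salivary genes, 3 lower and 2 higher.

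Some lists are known to follow handling, RNA quality or metabolism. Immediate-early genes, switched on within minutes by stress or dissection, rose in 16 of 19 cases, and 1 fell (median 0.24). Fos had 12.01, 11.99 and 11.7 CPM without treatment against 22.6, 23.4 and 24.8 CPM with the empty device, 1.99-fold higher (log2 fold change 0.99 with SE 0.051, adjusted p = 2.62e-15 by edgeR). Klf2, Dusp1 and Jun rose by 0.75, 0.57 and 0.38, while Atf3 fell (-0.27) and Egr1 did not pass (log2 fold change 0.062 with SE 0.032, adjusted p = 0.117 by edgeR) but was called lower with the trend removed (-0.25). With the trend removed 12 rose and 5 fell.

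Mitochondrially encoded genes fell in 12 of 13 cases (median -0.55), but in 8 with the trend removed (median -0.089, beside -0.0711 for all genes). In that fit mt-Nd3 was called higher (0.12). Ribosomal protein genes fell in 19 of 20 cases (median -0.63, and -0.59 with the trend removed). Their longest reference transcripts, the ones used to remove the trend, had a median length of 1567.5 bases. Genes of 1000 to 2000 bases had a median log2 fold change of -0.11. Rpl5 went from 570.5, 513 and 501 CPM to 313, 323 and 313 CPM (log2 fold change -0.74 with SE 0.039, adjusted p = 1.08e-14 by edgeR). Of 13 heat shock chaperones 8 fell and 5 rose (median -0.21), but 8 fell and 1 rose with the trend removed (median -0.36). Hsp90aa1 and Hspb1 stood at -1.21 and 0.41 as fitted, and at -1.16 and 0.30 with the trend removed. Of 20 nuclear-encoded respiratory chain genes 13 fell and 5 rose (median -0.19), with Cox7b at -0.76. Of 17 hypoxia and glycolysis genes 7 rose and 5 fell (median 0.042). Vegfa, the main growth factor of blood vessels, rose by 0.61, while the glycolytic gene Pgk1 changed by -0.73. The hypoxia median was below 0 without untreated replicate 3 or without empty-device replicate 2 (-0.029 and -0.026), and 4 rose and 4 fell with the trend removed.

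Positional genes also differed. Hox and other body position genes keep in adult skin a record of where on the body it lies. Of 14, 8 rose and 6 did not pass (median 0.32). Hoxa9 had 3.79, 4.18 and 3.395 CPM in untreated lesions and 7.11, 7.26 and 7.83 CPM under the empty device (log2 fold change 0.97 with SE 0.078, adjusted p = 2.6e-11 by edgeR). Hoxa7 and Pitx1, a factor of hind limb identity, rose by 0.47 and 0.78. With the GC and length trend removed 5 rose and 1 fell, with Hoxa9 at 0.87. Of 16 circadian clock genes 7 rose and 3 fell (median 0.087), but 7 rose and 7 fell with the trend removed (median -0.028). As fitted, Arntl and Npas2, of the positive arm of the clock, stood at 0.41 and 0.85, and Per2 and Dbp at -0.35 and -0.39. With the trend removed these genes stood at 0.31, 0.66, -0.65 and -0.64. No source used here gives the site or the hour of sampling, and their part in the results was not tested.

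Several of the 12 named genes with the highest fold changes lie outside the lists. They include Morc1, a germ cell gene, at 42, 40 and 60 counts untreated against 211, 218 and 232 under the empty device (log2 fold change 2.04 with SE 0.15, adjusted p = 4.71e-12 by edgeR). Padi2, which converts arginine to citrulline in proteins, rose from 4.14, 4.11 and 3.73 CPM to 9.39, 10.03 and 10.1 CPM. The groups did not overlap for either. Genes on the other strand overlap Rgs11 and, by little, Ankdd1a. Atp1b4, Ankdd1a, Rgs11, Fetub and Scn2a rose by 1.19, 1.17, 1.09, 1.09 and 1.07. At the other end Krt9, a keratin of the footpad, had 2.48, 1.74 and 4.91 CPM against 0.897, 0.737 and 0.664 CPM (log2 fold change -1.99 with SE 0.47, adjusted p = 0.0122 by edgeR). Untreated replicate 3 lay well above the other untreated libraries, and the call was lost without empty-device replicate 3.

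**Figure D5:**
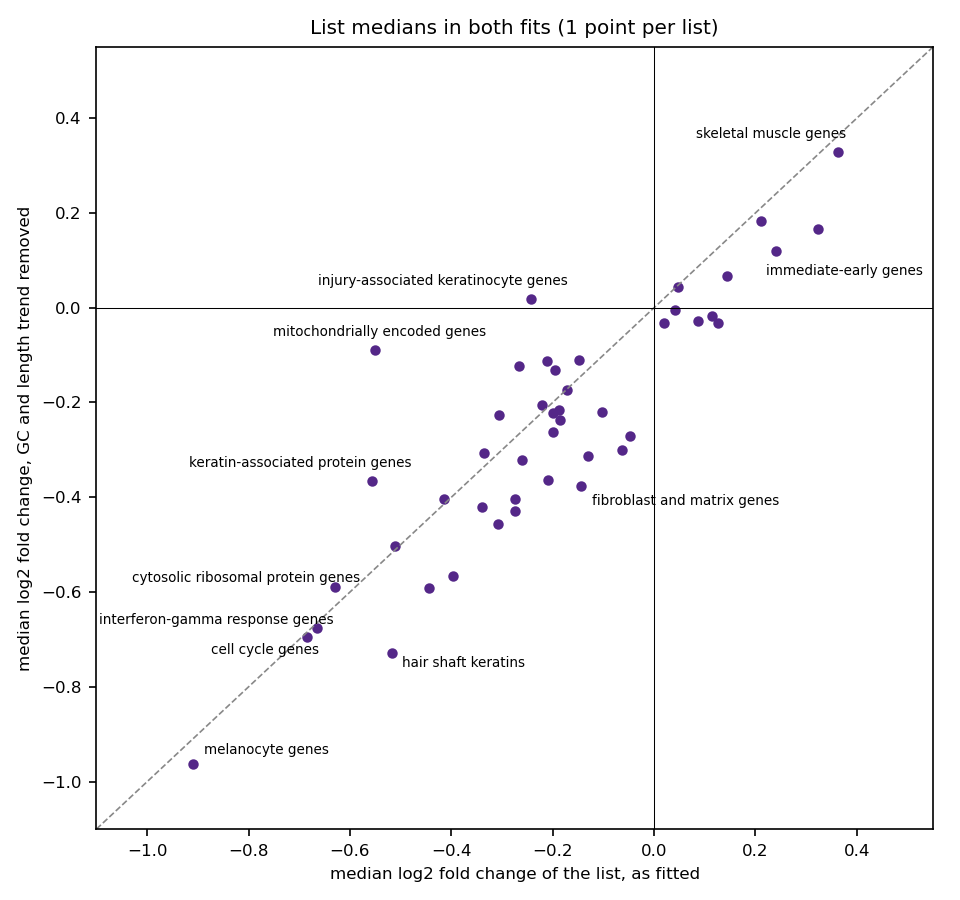
Median log2 fold change of each of the 46 lists as fitted (horizontal) and with the GC and length trend removed (vertical), with 1 point per list and a dashed line where both are equal. Melanocyte (-0.91 and -0.96) and muscle lists (0.36 and 0.33) lie near the line, and mitochondrially encoded genes (-0.55 and -0.089) lie far from it.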

How the data were processed

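Per the labels' protocols, the polyadenylated RNA of bulk skin came from Qiagen's miRNeasy chemistry, and IDT's xGen Broad-Range preparation gave the libraries. The authors deposited raw counts per gene. HISAT2, featureCounts and mm39 are named in the submitters' processing notes, without versions or settings. The counted length equals the gene's span in 99.9% of genes, so introns were counted. Genes were filtered with filterByExpr (minimum count 10, minimum total 15) and tested with edgeR 4.0.16 (R 4.3.3): TMM scaling, robust quasi-likelihood fit of all 9 libraries, Benjamini-Hochberg adjustment over all 26081 tested genes, called under 0.05. CPM are TMM-scaled. Shares of counts were compared by exact two-sided permutation. The libraries had 85962714 to 96740589 counts. Alternatives used limma 3.58.1, DESeq2 1.42.0, other scalings, filters and left-out libraries.

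Genes and lists were chosen with earlier results of these data known. Named genes are the 12 highest and 12 lowest called fold changes of at least 1 CPM whose groups lie apart (predicted genes and receptor segments set aside), the 4 members of smallest p of each list and a fixed set of genes of the immune, follicle and tissue markers. Other genes were named after their values were seen. GC content and length came from GENCODE M21 transcripts (GRCm38), matched by symbol for 25032 tested genes. Promoters came from RefSeq.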

Additional observations from a re-analysis of the deposited data

How the results depend on the processing

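Requiring more than a 1.5-fold change (edgeR's glmTreat) left 908 genes called, 116 higher and 792 lower, with 290 at 2-fold or more (42 higher and 248 lower), 129 list members and 94 named genes. Members then called lower were 19 for keratin-associated proteins, 11 for the cell cycle, 8 for melanocytes, 7 each for interferon-gamma response, wound repair and adipocytes, 6 each for type I interferon and injured keratinocytes and 5 for foreign body genes. They were 4 each for hair shaft keratins, the CCR4 axis and ribosomal proteins, 3 each for dermal papilla, sebaceous, cytotoxic, inflammatory and heat shock genes, and 2 each for MHC class I, B and plasma cell and nuclear respiratory genes. They were 1 each for hair matrix, macrophage, dendritic, mast cell, type 2 and mitochondrially encoded genes and 0 for inner root sheath, stem cell, cholesterol, T cell and fibroblast genes, where the counts without that minimum were 11, 7, 11, 8 and 16. Members called higher were 3 for epidermal differentiation, 2 each for muscle and immediate-early genes, 1 each for lipid barrier, clock and Hox genes, and 0 for endothelial, Schwann cell and hypoxia genes, against 8, 5 and 7 without it.

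A stricter filter (mean of 1 CPM), which tests fewer genes, left 187 genes at 2-fold or more (30 higher, 157 lower), 11 higher lipid barrier genes, and 5 lower T cell and 3 lower cytotoxic genes. Library-size scaling gave 280 genes higher at 2-fold or more, 13 lipid barrier and 11 clock genes higher, and 3 T cell and 3 mast cell genes lower. It also raised the higher count to 7 for MHC class II, Schwann cell, injured keratinocyte and fibroblast genes, 6 for inflammatory genes and 5 for wound repair and immune privilege genes. With upper-quartile scaling 12 lipid barrier genes were higher and 4 T cell genes lower. Without a filter 290 genes were higher at 2-fold or more and 5 T cell genes lower. T cell genes lower were also 5 with DESeq2 size factors, 5 with DESeq2's Wald test and 4 with only these groups in the fit. With the GC and length trend removed, 319 genes were higher at 2-fold or more, 11 stem cell, 17 cholesterol and 5 T cell genes were lower, and 2 endothelial, 4 hypoxia and 5 Hox genes were higher. Among genes named by rule the same fit changed the sign of Col17a1 (-0.11), Itgb4 (-0.21), S100a8 (0.093), S100a9 (0.11) and Il2 (0.14). Genes named after their values were seen, such as Egr1, are left out of this list. Il2 and S100a9 were not called as fitted. The cause of these differences was not tested. Leaving out each library in turn gave 4 to 7 T cell genes lower, 3 to 6 Schwann cell genes higher and 7 to 11 lipid barrier genes higher, and Il2 lay between -0.51 and 0.014. Calls of Il2ra and S100a8 were lost in 6 and 5 of these fits. The replicate numbers did not pair the libraries (correlations -0.074, -0.045 and 0.056), and a replicate block gave 12490 called genes, 5218 higher and 7272 lower. Depth limits the low lymphocyte genes, such as Foxp3 (20 to 33 counts per library) and Il2 (11 to 25).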
